A study of Gossypium hirsutum with 63 samples.

Results

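The comparison described here is the H-hybrid against the L-hybrid of upland cotton (Gossypium hirsutum) in flower buds, 6 of the 63 RNA-seq libraries of the series. Its members were taken by their labels, 3 flower bud libraries of H (label SJ48x98-15, high yield heterosis) and 3 of L (label SJ48xT-8, low yield heterosis). Both hybrids have the same maternal parent, the inbred line A (SJ48), and they differ in the paternal parent, B (Z98-15) for H and D (DT-8) for L. All plants were grown in the field and buds of several sizes were pooled for each replicate, so a library holds sepals, petals, anthers and carpels of more than 1 stage. A further hybrid, M (label SJ48x51-2, from A and the inbred line C), and the 4 inbred parents had 3 flower bud libraries each, and H and L also had 3 libraries each from leaf and from ovule at 1 day post anthesis. Each genotype was 1 inbred line or 1 cross, and no agent was applied to any group.

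Heterosis is the superiority of a hybrid over its parents. An F1 plant carries a maternal and a paternal copy of each gene, so H and L share their maternal copies and can differ in the paternal copies that B and D supplied. A difference between the hybrids can then be read against the difference between the paternal lines, which was measured in separate libraries. Upland cotton is an allotetraploid with an A and a D subgenome, named in its gene identifiers (Gh_A and Gh_D), and most genes have a homoeologous copy on the other subgenome.

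The values were FPKM (fragments scaled to transcript length and to the number of mapped reads), and H and L were compared on the scale log2(FPKM + 1), which understates the change of genes with low values. The sources give no read depth that could be set against a single gene, so the error of a value is its spread over libraries. The tissue label was checked against marker genes. The mean log2(FPKM + 1) of 109 genes of floral organ identity lay between 2.19 and 2.46 in the 6 bud libraries, against 0.801 to 0.940 in leaf and 1.63 to 1.81 in ovule. Genes of photosynthesis lay between 1.77 and 1.98 in buds and between 3.79 and 4.23 in leaf. The list of 174 ovule and seed genes did not mark ovule, with 1.06 to 1.27 in ovule, 1.5 to 1.6 in buds and 1.18 to 1.53 in leaf.

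L replicate 3 stood apart from the other 5 bud libraries before any comparison was made. Its correlation with them was between 0.861 and 0.892 over the tested genes, while the pairs of the other 5 libraries had correlations between 0.895 and 0.926. In L replicate 3, 1649 of 63805 genes were more than 1 log2 unit outside the range of the other 5 libraries, and in those 5 libraries the number was 483 to 698. Bud stage also differed between replicates of 1 hybrid. The pollen wall and tapetum score was the mean log2(FPKM + 1) of 32 genes. They were chosen by description words for the outer pollen wall, tapetum, male sterility, anthers and microspores. The score was 3.65, 2.17 and 2.50 in H and 2.49, 3.27 and 2.09 in L. The ranges of the hybrids overlapped, with a difference of 0.16 and an exact two-sided permutation p of 0.6, where 0.1 is the smallest p that 3 against 3 libraries allow. For this reason the genes that the results turn on are given with the value of each library.

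Few genes separated the hybrids. Of 63805 genes tested, 116 differed between H and L (limma, Benjamini-Hochberg adjusted p under 0.05 and a log2 difference beyond 1 in either direction), which is 0.182% of the genes tested, with 51 higher in H and 65 higher in L. In all 116 the 3 H libraries and the 3 L libraries did not overlap, a condition that 6257 genes, 9.81% of those tested, met without regard to size. The looser limits used in the study, a p under 0.05 with no adjustment and the same log2 difference, were passed by 536 genes or 0.84%, 244 higher in H and 292 higher in L, and the libraries overlapped in 193 of them. The count depended on how the spread was estimated. All 21 bud libraries of the 7 genotypes shared the estimate, and with H and L alone in the fit 57 genes were called and 31 of the 116 remained. Leaving out L replicate 3 gave 110 genes, of which 91 were among the 116.

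The genes that differed were mostly switched on in 1 hybrid and near 0 in the other. In 73 of the 116 the lower hybrid was under 0.5 FPKM in all 3 libraries, 29 where L was low and 44 where H was low. Most had modest levels, with a median of 3.19 FPKM in the higher hybrid and 10 genes above 10 FPKM. No gene name stands in the files for 77 of the 116 (66.4%), which are loci of the merged transcript assembly, and the share without a name was 20.9% of all genes tested. A description was given for 19 of the 116 (16.4%), against 64.5% of all genes tested. Of the named genes that differed, 18 lay on the A subgenome (0.0752% of those tested there), 18 on the D subgenome (0.0725%) and 3 on unplaced scaffolds.

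The clearest gene with a known family was Gh_A09G0220 on chromosome A09, an EXS (ERD1/XPR1/SYG1) family protein. This family holds membrane proteins that export phosphate, such as PHO1 of Arabidopsis. Its level was 0.136, 0.108 and 0.0865 FPKM in H and 9.28, 9.67 and 9.64 FPKM in L, so no L library came near any H library. H minus L was -3.25 ± 0.13 (SE) on the log2(FPKM + 1) scale, with an adjusted p of 1.9e-09. The paternal lines differed in the same way, with 0.122 ± 0.0331 FPKM in B and 19.1 ± 4.63 FPKM in D (SD, n = 3), and the maternal parent A was at 0.148 ± 0.0868 FPKM. L thus had a level between those of its parents, and H had a level as low as those of both its parents.

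An aldehyde dehydrogenase of the 7B type, an enzyme that oxidises reactive aldehydes, is given as the joined locus Gh_A06G1257 and Gh_A06G1256. It had 10.5, 9.83 and 8.30 FPKM in H and 31.2, 27.4 and 28.1 FPKM in L, with H minus L at -1.51 ± 0.10 and an adjusted p of 4.2e-07. Its level was 9.09 ± 1.29 FPKM in A, 9.59 ± 0.584 in B and 50.1 ± 5.35 in D, so D was the parent that stood apart. The locus with the next number, Gh_A06G1255, a pentatricopeptide repeat protein of a family that processes RNA in organelles, went the other way. It was at 5.22, 6.58 and 4.40 FPKM in H and 2.70, 2.13 and 2.85 FPKM in L, with 0.0613 ± 0.0465 FPKM in D and 4.63 ± 1.57 FPKM in B. Its H minus L of 0.84 had an adjusted p of 0.093 and did not pass the test.

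A terpene synthase, from the family that makes defensive and volatile terpenoids, stands at 1 of the assembly loci with the name Gh_A04G0198. It had 2.23, 2.54 and 2.41 FPKM in H and 9.85, 10.9 and 6.75 FPKM in L, and H minus L was -1.56 ± 0.24 with an adjusted p of 0.0052. D was again the high parent, with 14.8 ± 4.14 FPKM against 2.32 ± 0.591 in B. A sulfotransferase, an enzyme that adds sulfate to small molecules, is given as the joined locus Gh_D05G3614, Gh_D05G3613 and Gh_D05G3615. Its level was 2.80, 3.30 and 6.17 FPKM in H and 15.6, 14.4 and 11.8 FPKM in L (adjusted p of 0.00086), and D had 19.4 ± 3.42 FPKM against 5.34 ± 0.477 in B. A carotenoid cleavage enzyme of the nine-cis-epoxycarotenoid dioxygenase family stands at 1 of the assembly loci with the name Gh_D12G2009. It had 0.135, 0.214 and 0.340 FPKM in H and 1.75, 2.57 and 4.25 in L. Its adjusted p of 0.0088 rose to 0.051 without H replicate 1 and to 0.059 without L replicate 3.

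The carboxyltransferase alpha subunit of acetyl-CoA carboxylase, which supplies malonyl-CoA for fatty acid synthesis in plastids, stands at Gh_D13G2520. It had 3.0, 2.42 and 2.74 FPKM in H and 7.18, 9.70 and 9.77 in L, with H minus L at -1.40 ± 0.20 and an adjusted p of 0.0024. L, at 8.88 ± 1.47 FPKM, was close to D at 9.72 ± 1.18 FPKM, while A had 2.46 ± 0.493 FPKM. Gh_A03G0507, of glycosyl hydrolase family 32, which includes the invertases that split sucrose, had 0.326, 0.0971 and 0.753 FPKM in H and 2.21, 2.17 and 2.25 FPKM in L (adjusted p of 0.0012). Its paternal levels were 0.124 ± 0.0461 FPKM in B and 4.0 ± 0.570 FPKM in D.

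Most of the described genes that were higher in H were on in B and near 0 in A and in D, and 2 had another pattern of parents. Gh_A10G1959 codes for a protein with the conserved region of Kin17, a nuclear DNA- and RNA-binding protein. It had 4.22, 4.41 and 4.95 FPKM in H and was listed at 0 in the 3 libraries of L, with an H minus L of 2.46 ± 0.30 and an adjusted p of 0.00042. B had 12.2 ± 1.34 FPKM and D had 0.305 ± 0.528 FPKM. The SNF7 family gene at Gh_A13G1727, whose family builds the ESCRT-III filaments that cut membranes, had 4.07, 4.77 and 4.65 FPKM in H and 0.147, 0.167 and 0.0783 FPKM in L (adjusted p of 2.4e-09). B had 9.03 ± 0.622 FPKM, C had 8.74 ± 0.307 FPKM, and A and D were under 0.5 FPKM in every library. A neighbouring locus of the assembly with the same gene name had 2.96, 3.92 and 4.52 FPKM in H and at most 0.0940 FPKM in L, and the names do not tell whether both loci are parts of 1 gene.

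A phloem protein of the lectin family found in sieve elements, Gh_A05G2423, had 4.78, 4.44 and 3.68 FPKM in H and 0.125, 0.181 and 0.141 FPKM in L (adjusted p of 4.2e-07). A pyridoxal phosphate enzyme like D-amino acid aminotransferases, Gh_D03G0742, had 1.89, 1.54 and 2.72 FPKM in H and was listed at 0 in L. The regulatory beta subunit of casein kinase II at Gh_D11G0790 had 2.69, 3.37 and 2.44 FPKM in H and 0.635, 0.404 and 0.471 FPKM in L (adjusted p of 0.00036). In these 3 genes B was the only high line among A, B and D, with means of 6.48, 5.80 and 4.97 FPKM.

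The first of the other patterns was that of the joined locus Gh_D12G1624 and Gh_D12G1625, a v-SNARE that helps vesicles to fuse with their target membrane, which was on in all lines. It had 8.51, 14 and 16.2 FPKM in H and 5.16, 3.83 and 3.89 FPKM in L, and B had 16.5 ± 3.85 FPKM against 2.91 ± 0.541 FPKM in D. Its adjusted p of 0.015 lay between 0.077 and 0.10 without H replicate 2, H replicate 3, L replicate 2 or L replicate 3. The second was Gh_A05G2005, a calcium-dependent protein kinase with a calmodulin-like domain, which was on in A and in B and nearly off in D. Its level was 5.58, 7.66 and 5.82 FPKM in H and 2.60, 2.01 and 2.56 FPKM in L, with 5.75 ± 1.03 FPKM in A, 6.74 ± 1.02 in B and 0.0549 ± 0.0283 in D. H was close to both its parents, and L lay between A and D. H minus L was 1.11 ± 0.14 with an adjusted p of 0.00047, and it was 0.99 without H replicate 2, just inside the limit of 1.

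Loci without a description held the largest differences. Gh_A11G2680, at 1 of the assembly loci with that name, had 0.0849, 0.0608 and 0.0860 FPKM in H and 11, 7.08 and 12.3 FPKM in L, with an H minus L of -3.33 ± 0.19 and an adjusted p of 4e-08. D had 21.1 ± 5.08 FPKM, and C and M were on as well, at 25 ± 3.81 and 11.4 ± 1.73 FPKM. The clearest in the other direction was MSTRG.29510, with 5.57, 6.30 and 6.86 FPKM in H and at most 0.0886 FPKM in L (H minus L of 2.80 ± 0.12, adjusted p of 1.9e-09). B, at 12 ± 2.18 FPKM, was the only parent in which it was on. The highest level among the 116 was that of MSTRG.41919, with 88.6, 79.3 and 66.3 FPKM in H and 194, 171 and 181 FPKM in L. Its adjusted p was 0.00030, and B and D had 68.6 ± 9.54 and 230 ± 42.1 FPKM. MSTRG.30553 had the largest fitted difference among the genes higher in H, 6.52, 8.60 and 7.21 FPKM against 0 listed in L, but its adjusted p of 0.026 was above 0.05 when any of the 6 libraries was left out.

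**Figure D1:**
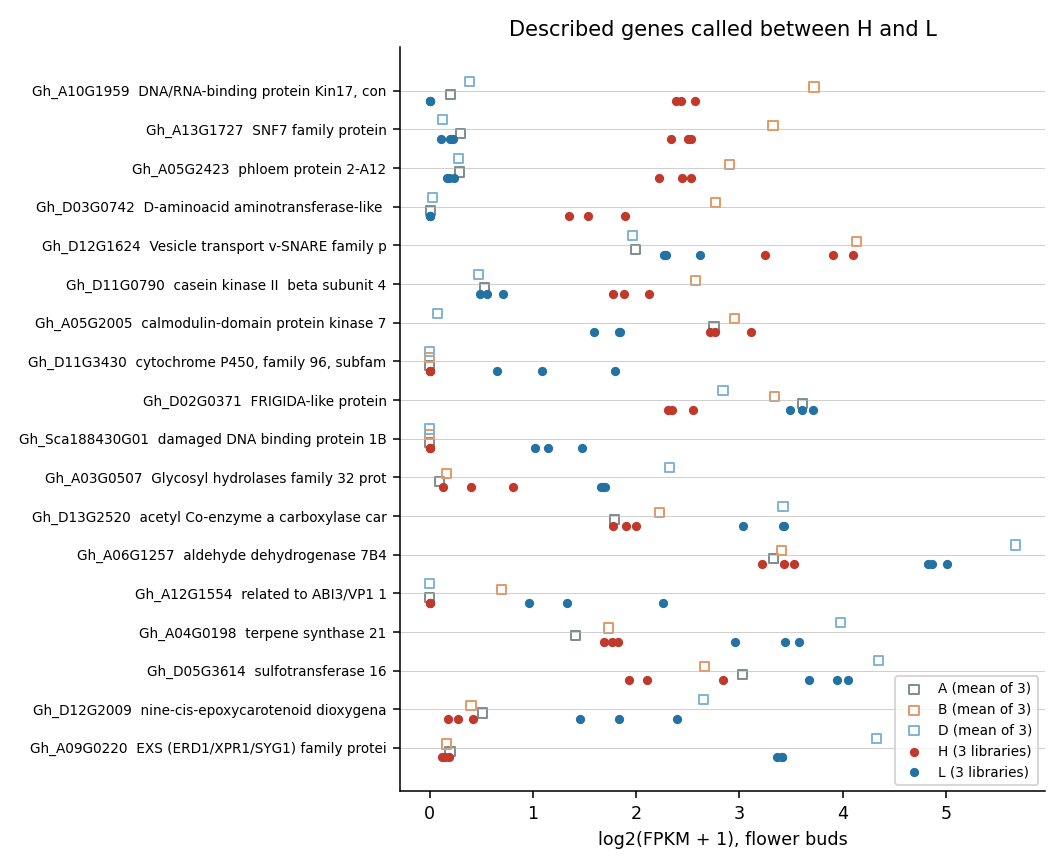
Expression in flower buds, as log2(FPKM + 1), of the 18 genes with an informative description that differed between H and L. Filled points are the 3 libraries of H (red) and of L (blue), and open squares are the means of 3 libraries of the parents A, B and D. In Gh_A09G0220 the 3 L points sit between the A and D squares, and in Gh_A05G2005 the D square stands alone near 0.

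The differences between the hybrids followed those between the paternal lines. B and D differed at 605 genes (0.948% of those tested, 360 higher in B and 245 higher in D). Their libraries were not those of H and L. All 21 bud libraries shared the estimate of spread, so these calls are not independent of those for H against L. The pollen wall score, a measure of bud stage, was 2.31, 1.62 and 1.38 in B and 3.54, 2.43 and 3.21 in D. With this score in the model 545 genes were called, 268 higher in B and 277 higher in D. The part of bud stage in B minus D was not tested further. H minus L had the same sign as B minus D in 107 of the 116 genes that differed between the hybrids, against 53.0% of all genes with a difference in both. B minus D passed the test in the same direction in 101 of the 116, and in the opposite direction in none. In the other order, with genes chosen by the test of B against D, H minus L had the same sign in 544 of 605. The H and L libraries were separate in that direction in 359 (59.3%) and separate in the opposite direction in 7. H minus L passed the test at 101 of the 605, all in the direction of the paternal lines. The median of the ratio of H minus L to B minus D over the 605 genes was 0.35 on the log2(FPKM + 1) scale, with the middle 50% of genes between 0.16 and 0.56.

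**Figure D2:**
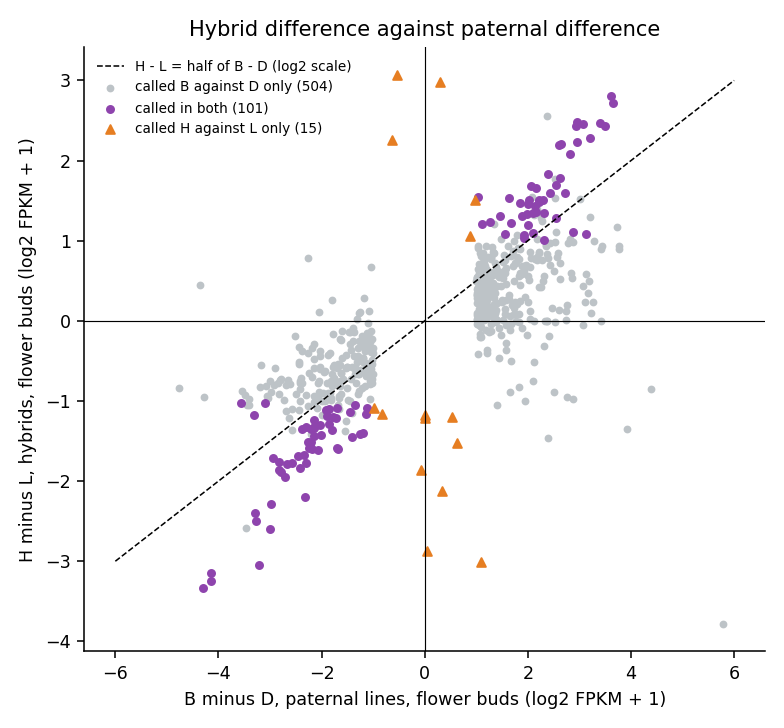
H minus L against B minus D in flower buds, both as differences of log2(FPKM + 1), for genes that passed the test in either comparison. Grey points differed between B and D alone (504), purple points in both comparisons (101, all with the same sign on both axes) and orange triangles between H and L alone (15), and the dashed line marks an H minus L of 0.5 times B minus D.

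Levels were also compared on the FPKM scale in genes chosen without H or L. Total levels were measured, so the copies of the parents cannot be told apart within a hybrid. In 41 genes D alone was on (above 2 FPKM in its 3 libraries, with A and B under 0.5 FPKM in all of theirs), and L had a median of 53.9% of the level of D, with the middle 50% of genes between 47.4 and 60.0%. L was above 0.5 FPKM in all its libraries in 40 of these genes and H was under 0.5 FPKM in all its libraries in 32. In 29 genes B alone was on, and H had a median of 45.7% of the level of B, with the middle 50% between 35.4 and 54.7%. H was above 0.5 FPKM in all its libraries in 22 of these genes and under it in all in 3, and L was under 0.5 FPKM in all its libraries in 24. Among the 3 with H off, Gh_A12G0970, a receptor-like protein kinase, had 5.76 FPKM in B and was listed at 0 in H, while L had 2.08 FPKM, and Gh_Sca048232G01 had 14.2 FPKM in B, 0 in H and 5.13 FPKM in L.

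The mirror image was seen where 1 paternal line was off and the other parents were on. In 36 genes D was under 0.5 FPKM and A and B were above 2 FPKM in all libraries. L had a median of 49.7% of the level of A in these genes and H a median of 90.5%, and every H library was above every L library in 22. Some went the other way, such as MSTRG.47420, with means of 63.6 FPKM in A, 54.1 in B, 0 in H and 33.4 in L. In 51 genes B was under 0.5 FPKM while A and D were above 2 FPKM. H had a median of 51.4% of the level of A there and L a median of 99.0%, and every L library was above every H library in 43. Only 3 of the 36 and 4 of the 51 reached a log2 difference beyond 1 with an adjusted p under 0.05. The locus MSTRG.22519 of the assembly had 17.5, 26.9 and 22 FPKM in H and 41.0, 40.9 and 37.7 FPKM in L, with 37.8 ± 5.24 FPKM in A, 0.287 ± 0.0563 in B and 34.5 ± 8.10 in D. Its H minus L of -0.84 had an adjusted p of 0.033 and stayed inside the limit of 1.

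**Figure D3:**
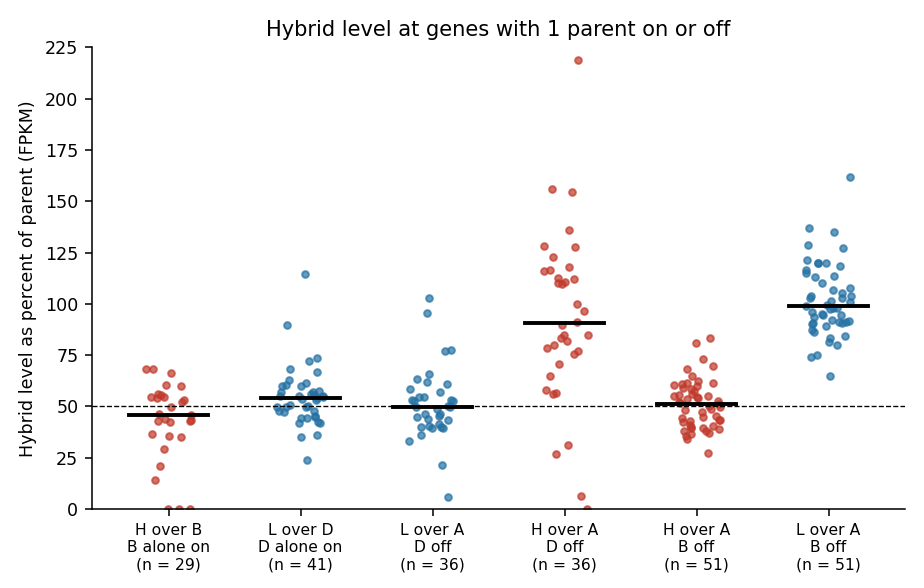
Level of a hybrid as a percent of a parent's level on the FPKM scale, for genes chosen on A, B and D alone. Each point is 1 gene, the bar is the median and the dashed line is at 50%. The medians for a hybrid with a single parent on were 45.7, 53.9, 49.7 and 51.4%, and where both parents were on they were 90.5% (H over A) and 99.0% (L over A).

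M and its paternal line C were measured at the same loci. Among the 24 genes that were higher in H and on in B alone of A, B and D, C was under 0.5 FPKM in 17 and above it in 7, and M was on at 3 of these 7 and off at 4. Where C was off, M was off in all its libraries at 11 and on in all at 4, although A was off there too. Among the corresponding 33 genes that were higher in L and on in D alone, C was off in 24 and on in 6, and M was on at 4 of the 6 and off at 2. Where C was off, M was off at 23 and on at 1. In the 33 genes the median ratio of L to D was 0.54, and in the 24 genes the median ratio of H to B was 0.54. These 2 ratios are descriptions, since the genes were chosen by the difference between H and L.

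In 15 of the 116 genes B and D did not differ past the test in the same direction, and 9 of these had an opposite or no difference between B and D. MSTRG.40225 was the clearest, with 8.01, 6.53 and 6.2 FPKM in H and 0 listed in the 3 libraries of L. Its level was 6.88 ± 2.14 FPKM in A, 7.82 ± 1.42 in B, 6.30 ± 2.19 in D, 7.92 ± 1.72 in C and 7.40 ± 0.365 in M, so among the flower bud libraries it was listed at 0 in all replicates of L alone. In leaf it was on in both hybrids, with 14.9, 15.8 and 14.3 FPKM in H and 12.6, 14.1 and 14.4 FPKM in L, and in ovule it was listed at 0 in every library of both. MSTRG.42745 showed the reverse, listed at 0 in H and at 2.74, 2.09 and 3.11 FPKM in L, with parents between 2.10 and 2.96 FPKM. A value of 0 in a StringTie table can also be a transcript that was not estimated in a library, and this was not tested. MSTRG.45327 was at 0, 0 and 1.44 FPKM in H and at 4.48, 4.57 and 5.63 FPKM in L, while no parent had a mean under 4.07 FPKM.

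Some described genes were on in L and listed at 0 in both its parents. Gh_Sca188430G01, a copy of DDB1B, an adaptor of ubiquitin ligases in Arabidopsis, had 1.77, 1.22 and 1.03 FPKM in L and was listed at 0 in every other flower bud library. Gh_D11G3430, a cytochrome P450 of the CYP96A group, whose members oxidise wax alkanes in Arabidopsis, had 0.570, 1.12 and 2.47 FPKM in L and was listed at 0 in every other flower bud library. Its H minus L of -1.18 became -0.87 without L replicate 3. Gh_A12G1554, related to ABI3/VP1 and thus a DNA-binding protein with a B3 domain, had 1.52, 0.953 and 3.79 FPKM in L, 0 in H, A, C, D and M, and 0.618 ± 0.543 FPKM in B. Its adjusted p of 0.012 was between 0.051 and 0.057 when any H replicate was left out. The FRIGIDA-like gene Gh_D02G0371, of a family named for a regulator of flowering time in Arabidopsis, was on in all lines. It had 4.85, 3.96 and 4.07 FPKM in H and 11.1, 12.1 and 10.2 FPKM in L, and its parents had 11.2 ± 4.46 (A), 9.14 ± 0.370 (B) and 6.17 ± 1.78 (D) FPKM. Its adjusted p of 0.047 lay between 0.098 and 0.20 when any of the 6 libraries was left out.

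The departure of the hybrids from their paternal lines was tested as H minus L less 0.5 times B minus D, and 12 genes passed (0.0188%), 3 above and 9 below. A level at the mean of the parents on the FPKM scale can itself pass this test on the log2 scale when 1 parent is near 0, as in Gh_A09G0220, where the departure was -1.18 with an adjusted p of 0.0059. A gene that passed and was on at like levels in all parents was Gh_A07G0794, an RNA-binding protein with RRM motifs, at 14.3, 15.8 and 18.2 FPKM in H and 33.8, 30.5 and 33.6 FPKM in L. A had 16.3 ± 0.964, B 17.1 ± 1.72, D 15.8 ± 1.3, C 19.1 ± 0.646 and M 17.2 ± 2.02 FPKM, so L stood above all other genotypes. Its H minus L was -0.98 ± 0.10, inside the limit of 1, with an adjusted p of 6.2e-05, and the departure was -1.04 with an adjusted p of 0.0013. On the FPKM scale, H minus L over the 605 genes was a median of 0.79 times the difference expected at the mean of the parents, with the middle 50% between 0.31 and 1.1. The 605 genes were chosen for a large B minus D, which can lower this ratio and the ratio of 0.35 on the log2 scale. In the genes chosen by the difference between H and L the median on the FPKM scale was 1.09.

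Flower buds were not the only tissue in which these genes differed. Leaf libraries of H and L separated 296 genes (0.493%), and 64 of the 114 bud genes tested in leaf were among them in the same direction, with none in the opposite direction. The sign was the same in 108 of 114. In ovule 1622 genes (2.73%) differed, but L ovule replicates 2 and 3 stood apart from the other ovule libraries, and with L replicate 1 alone the count was 258 (0.446%). That fit has no replicate of L, and its p-values assume that the single L library varies like the other ovule groups. On that assumption 62 of 112 bud genes differed in the same direction, and with all 3 replicates 72 did. Calls in the same direction were made in leaf and in this ovule fit for 48 of the 116. Gh_A09G0220 was among them, with H minus L of -3.29 in leaf and -3.54 in ovule against that library, and so was MSTRG.29510, with 2.68 and 2.73.

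**Figure D4:**
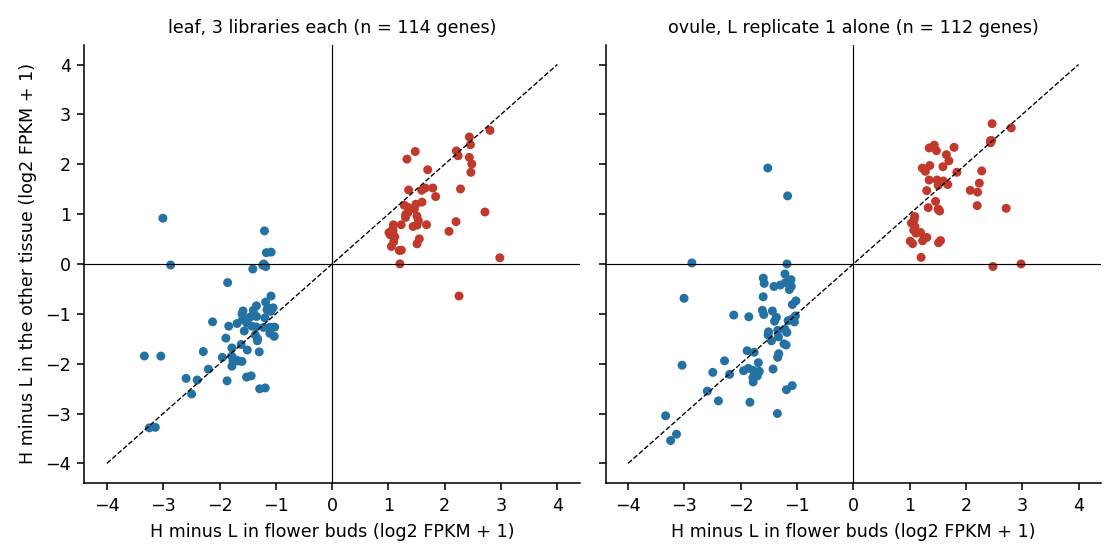
H minus L in leaf (left, 114 genes) and in ovule with L replicate 1 alone (right, 112 genes) against H minus L in flower buds, as differences of log2(FPKM + 1), for the genes that differed in flower buds. Red points were higher in H in buds and blue points higher in L, and the dashed line marks equal differences. In leaf 108 of 114 points have the sign they have in buds.

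A difference between tissues was tested directly, as the interaction of hybrid and tissue. It passed at 86 genes (0.129%) for flower buds against leaf and at 169 (0.252%) for flower buds against ovule. Among the 116 bud genes it passed at 11 for leaf, 7 that were higher in H and 4 that were higher in L, and at 16 for ovule. The phloem protein Gh_A05G2423 had an H minus L of 2.20 in buds and 0.85 in leaf, a difference of 1.35 with an adjusted p of 0.0051. The glycosyl hydrolase Gh_A03G0507 had an H minus L of -1.23 in buds and -0.02 in leaf, a difference of -1.21 with an adjusted p of 0.0061.

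Lists of pathway and marker genes were read against the 0.182% of all tested genes that passed, at which lists of this size hold few called genes or none. In 30 of 33 lists of genes, chosen by words in the descriptions, no member passed. The other 3 had 1 member each, all higher in L, namely the EXS gene among 196 genes of phosphate and nitrate transport, the terpene synthase among 45 and the CYP96A gene among 329 cytochrome P450 genes. None of 295 genes of starch and sucrose metabolism passed, with a median H minus L of 0.00, nor did any of 287 auxin, 69 brassinosteroid, 188 cellulose and hemicellulose or 449 cell cycle genes, counts that do not stand apart from the background. The word search left the glycosyl hydrolase Gh_A03G0507 out of the starch and sucrose list and the dioxygenase Gh_D12G2009 out of the abscisic acid list, and both passed the test. The median over all genes was 0.00. The lists with medians farthest from it were 47 flavonoid genes at -0.10 and 874 ribosomal protein genes at -0.10.

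A few list members had differences with an adjusted p under 0.05 that stayed inside the limit of 1 on the log2(FPKM + 1) scale. That scale understates the change in genes with low values, such as Gh_A11G2772 and Gh_D08G1244. Gh_A10G1562, a neutral invertase that splits sucrose in the cytosol, had 7.80, 6.62 and 7.59 FPKM in H and 5.18, 4.54 and 5.11 FPKM in L, with an H minus L of 0.49 ± 0.09 and an adjusted p of 0.017. Its paternal levels were 6.50 ± 0.133 FPKM in B and 2.80 ± 0.229 in D. Among 271 immune receptor genes, Gh_A11G2772 had 1.99, 1.64 and 1.53 FPKM in H and 0.426, 0.553 and 0.552 FPKM in L (adjusted p of 0.0010). The ribosomal protein gene Gh_A05G3502 of the L16p/L10e family had 46.4, 53.3 and 49.7 FPKM in H and 82.9, 74.5 and 76.0 FPKM in L, with an H minus L of -0.63 and an adjusted p of 0.00011. B, at 36.8 ± 0.945 FPKM, was the low parent of this gene, and A and D had 75.4 ± 5.18 and 74.1 ± 2.37 FPKM. A glycolipid transfer protein gene, Gh_D08G1244, had at most 0.0295 FPKM in H and 1.06, 0.817 and 0.839 FPKM in L (adjusted p of 0.00019), and D was at 2.19 ± 0.288 FPKM.

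The study chose its 9 candidate genes from yield QTLs, co-expression and comparisons of hybrids with parents, some of them for flower buds of H and the others for ovule of L, and not on H against L in flower buds. It also measured the 9 genes by qRT-PCR on the same RNA. All but Gh_A08G2210 were reported to differ significantly between hybrids and 1 or both parents. H minus L in flower buds, a comparison of other groups, passed the test in none of the 9. In 4 of them the level was high in L replicate 3 and low in the other 5 libraries. Gh_D08G1440, a shaggy-like kinase of the group that includes the brassinosteroid regulator BIN2 of Arabidopsis, had 0.498, 0.291 and 0.919 FPKM in H and 0.301, 0.257 and 10.5 FPKM in L. The study names Gh_A12G2183 as GBSS1, a granule-bound starch synthase, and its description here is UDP-glycosyltransferase superfamily protein. It had 0.277, 0.518 and 1.28 FPKM in H and 0.228, 0.176 and 15.7 FPKM in L. Gh_D07G1312, the large subunit of ADP-glucose pyrophosphorylase, which makes the precursor of starch, had 0.267, 0.317 and 0.518 FPKM in H and 0.259, 0.168 and 6.52 FPKM in L. L replicate 3 was thus the only high library of the 6 in each, and the other 2 replicates of L lay within or below the range of H. Bud libraries of other genotypes reached such levels too. Gh_A12G2183 had 0, 19.9 and 8.71 FPKM in A, 0.385, 23.7 and 15.3 in C and 0.259, 32.9 and 10.1 in D. It had 3.46, 13.4 and 17.0 FPKM in M, and in B it was low, at 0.141, 1.93 and 1.39 FPKM.

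The endoglucanase Gh_A08G2210, of the family that trims cellulose, was at 3.55 FPKM in L replicate 3 and at most 0.0338 FPKM in the other 5 libraries. The BZR1 family gene Gh_A03G1024, a transcription factor of brassinosteroid signalling, had 2.14, 3.93 and 2.45 FPKM in H and 2.45, 3.35 and 5.79 FPKM in L. The other 4, a MAP kinase (Gh_D08G1467), a second EXS gene (Gh_A03G0889), a JAZ repressor of jasmonate signalling (Gh_A08G2199) and a pentatricopeptide repeat gene (Gh_D05G0202), had H minus L between -0.10 and 0.34. The adjusted p was 1 for all 9.

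The late pollen score, the mean log2(FPKM + 1) of 58 genes, was 1.84 in L replicate 3 and between 1.06 and 1.33 in the other 5 libraries of H and L. The same list scored 1.06 to 1.45 in ovule and 0.957 to 1.26 in leaf. Among the H and L bud libraries only L replicate 3 was above those ranges. Bud libraries of other genotypes reached such scores too. In replicates 1, 2 and 3 the score was 1.28, 1.85 and 1.57 in A, 1.14, 1.93 and 1.82 in C and 1.00, 1.91 and 1.54 in D. It was 1.31, 1.46 and 1.75 in M and 1.21, 1.40 and 1.44 in B. L replicate 3 also stood apart in many other genes, and the profilin genes given next were chosen after their values were seen. Gh_D06G0677, a profilin of the actin-binding family, had 29.4 FPKM in L replicate 3 and at most 1.34 FPKM in the other 5 libraries of H and L. The profilin gene Gh_A06G0596 had 18.7 FPKM in L replicate 3 and at most 0.559 FPKM in those 5. The summed level of the list was 234 to 285 FPKM in H and 309 to 442 FPKM in L, highest in L replicate 2, so the sum and the mean log score do not give the same order. The part of bud stage in the candidate values was not tested.

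**Figure D5:**
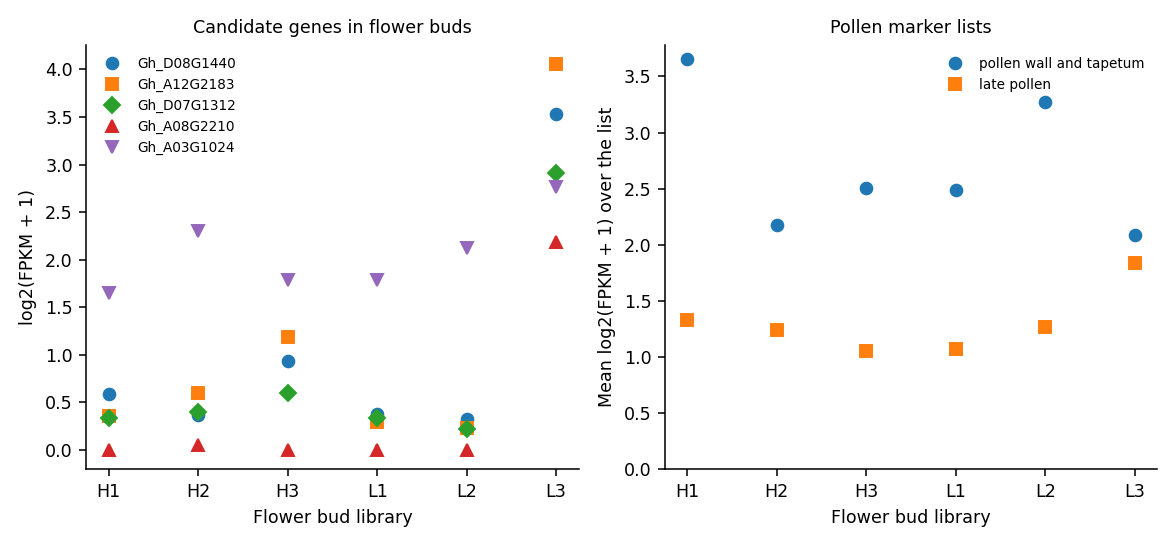
Left, log2(FPKM + 1) of 5 candidate genes of the study in the 3 H and 3 L flower bud libraries. Right, the mean log2(FPKM + 1) of 32 pollen wall and tapetum genes and of 58 late pollen genes in the same libraries. L3 has the highest value of all 5 genes, the highest late pollen score (1.84) and the lowest pollen wall score (2.09).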

How the data were processed

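RNA of leaf, flower buds and ovule was sequenced from 4 inbred lines and 3 hybrids, with 3 biological replicates each, and grouped here by the labels. The FPKM values were made by the authors before deposit: Cutadapt removed adapters, HISAT placed the reads on the upland cotton genome, StringTie built and merged the transcripts, and StringTie and Ballgown gave the expression levels. The sources used here name no genome build. Among the 80325 rows of genes, 52869 were numbered by the merged assembly and 13727 had no name. A locus whose gene name stands elsewhere too was kept apart. A set of 21 FPKM columns matches no sample listed here and was left out. Homoeologous and other near-identical copies may share reads, and no counts or depth per gene could be used, so no counting interval is given.

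A gene entered the test where any 1 of the 21 libraries of its tissue exceeded 0.5 FPKM. The test was limma 3.58.1 (R 4.3.3), run on log2(FPKM + 1) values with a variance trend and robust estimation, in 1 model over 7 genotypes. The script was tested on simulated data. Interactions were fitted over 42 libraries of 2 tissues. Scores were compared by exact permutation. The limma p-values rest on the spread of libraries within genotypes, estimated over all libraries in the model and moderated across genes, and not on that of H and L alone. No 2 bud libraries shared more than 0.00764% of their values. Named genes were the 15 largest called in each direction with an informative description and no overlap, the 9 candidate genes of the study, for each of 33 lists up to 4 called members or otherwise the 2 with the smallest p, and the 3 largest of each further contrast; loci without a description, Gh_A07G0794, MSTRG.29510, MSTRG.45327, MSTRG.42745, the genes named as on in B alone and the profilin genes were chosen after their values were seen. The members and lists were chosen with earlier results of these data known. The alternatives were a pseudocount of 0.1, 2 filters, 2 scalings, another choice of groups, limma without trend, the pollen wall score or the replicate number in the model, no limit on the difference, and leaving out replicates.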

Additional observations from a re-analysis of the deposited data

Results flagged for a closer look

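The interaction of hybrid and tissue, in differences of log2(FPKM + 1) by limma, flagged the genes below, whose H minus L in flower buds differed from that in another tissue. Against leaf, the values were positive in Gh_A05G2423 (1.35), Gh_D11G0351 (2.90), MSTRG.30553 (3.13) and MSTRG.18737 (1.67), which were higher in H in buds. They were negative in Gh_A03G0507 (-1.21), Gh_D02G0371 (-1.86), Gh_D05G0718 (-4.71), Gh_A07G0794 (-1.31) and the xyloglucan-modifying enzyme gene Gh_D13G0639 (-1.29). In the thioredoxin family gene Gh_D01G2034 (6.54) and the O-methyltransferase gene Gh_Sca005495G02 (3.66) the difference lay in leaf, with an H minus L in buds of 0.00 and 0.07.

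Against ovule, the values were -1.25 for the sulfotransferase Gh_D05G3614;Gh_D05G3613;Gh_D05G3615, -1.61 for the terpene synthase Gh_A04G0198@MSTRG.3999, -1.13 for Gh_A06G1359@MSTRG.8071, -1.11 for Gh_D13G0639 and -2.38 for MSTRG.52019. They were 1.03 for Gh_A05G2423, 1.40 for the sugar transporter Gh_A02G0694, 1.36 for the auxin-conjugating GH3 gene Gh_D01G0162, 2.98 for MSTRG.40225, 2.07 for Gh_D11G0351, 5.31 for Gh_A08G2420, 6.69 for Gh_D10G1652, 3.05 for MSTRG.30553, 1.60 for MSTRG.18737 and 2.38 for Gh_D08G1743. With L ovule replicates 2 and 3 left out, the adjusted p stayed under 0.05 in Gh_D01G0162, MSTRG.40225 and Gh_D08G1743, and Gh_A08G2420 had a value of 1.43 in place of 5.31.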

How the results depend on the processing

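Of 162 alternative values of the counts and the pollen wall score, 122 were taken as unchanged. For a count this meant a value within 1.5 times the one given, and for the pollen wall difference only the same sign. With no limit on the log2 difference the counts were 191 for H against L in flower buds, with or without the condition of no overlap, 3584 at the thresholds of the study, 1451 for B against D, 820 in leaf, 5969 in ovule, 162 for buds against leaf and 311 for buds against ovule. With only the groups in the contrast they were 57 for H against L in flower buds (with no overlap in all), 137 in ovule and 57 for buds against ovule. A pseudocount of 0.1 gave 1322 genes at the thresholds of the study and 67 for the departure from B minus D, which the pollen wall score as a covariate brought to 7. Upper-quartile scaling gave 146 for buds against leaf and the stricter filter 258 for buds against ovule. Without L ovule replicates 2 and 3 the counts were 258 in ovule and 78 for buds against ovule. Leaving out 1 replicate gave 104 to 124 for H against L in flower buds, 642 to 752 at the thresholds of the study, 504 to 636 for B against D, 13 to 24 for the departure, 201 to 281 in leaf, 287 to 5532 in ovule (highest without L replicate 1), 23 to 108 for buds against leaf and 63 to 188 for buds against ovule. Replicates of B and D were left out as a choice made after seeing the data. The pollen wall difference of 0.16 ran from -0.28 without H replicate 1 to 0.49, was -0.11 without L replicate 3 and was -0.22 with the median over the list. The causes of these changes were not tested.

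The replicate number as a block gave 123 genes for H against L in flower buds, and 112 of the 116 remained. The deviations of same-numbered H and L libraries had correlations of -0.10, -0.06 and -0.01. Over all genotypes the replicate number was not without structure, since the pollen wall score was highest in replicate 1 of every genotype but L. In replicates 1, 2 and 3 it was 3.67, 2.42 and 1.70 in A, 3.51, 2.22 and 1.71 in C and 3.25, 2.16 and 1.60 in M. Of the 113 named genes, none that passed the test changed sign under any alternative. FPKM without counts limits the test most in genes near 0, where a value may rest on few reads.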
